A study of Mus musculus with 3 samples.

Results

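Receptor tyrosine kinases are cell surface receptors whose inner part is an enzyme that puts phosphate on tyrosines. The 57 mouse genes described here are a fixed list of this family, chosen by name. No measured value set its members, though earlier results of these data were known when it was chosen. All 57 were found among the 55196 genes measured. The RNA came from Ba/F3, a mouse haematopoietic line, grown as 3 separate cultures that carry no labelled change of genotype. All were fed with RPMI medium that held 10% fetal calf serum, penicillin and streptomycin, and 0.2 ng/mL of recombinant mouse interleukin-3 (IL-3). The samples form 1 group with no contrast between conditions. They come from a study of tumour cell killing by neutrophils armed with IgA and of the kinase ITPK1, and the question addressed here is which receptor kinases this line expressed by itself.

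A ligand brings a pair of receptor chains together, the chains phosphorylate each other, and adaptor proteins such as GRB2 dock on the phosphotyrosines and start the RAS, PI3K and PLCγ pathways. Ba/F3 cells live on IL-3, whose receptor has no kinase of its own and works through cytoplasmic Janus kinases. An activated receptor tyrosine kinase put in as a transgene can replace IL-3 in these cells, which is why the line is widely used to test oncogenic kinases and their inhibitors. The level of the endogenous family members is the background of such tests.

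The depth was 32044889, 33880292 and 37180883 reads on genes in cultures 1, 2 and 3. Levels are given as CPM, the reads of a gene scaled to a library of 1000000 reads. For genes with a count of 0, the limit of 3 reads corresponds to 0.0936, 0.0885 and 0.0807 CPM and covers counting error only. The p-values below measure only the spread between these samples. Each culture was sequenced as 1 library, so differences between cultures and between libraries cannot be told apart. Genes at 1 CPM or more in every culture were counted as detected. Levels of different genes are compared as TPM, which divides reads by the kilobases of merged exons and scales to the same sum in every culture.

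Of the 57 receptor genes, 15 were detected, or 26.3%, beside 19.9% of all genes and 45.9% of protein-coding genes, the class to which all 57 belong. The median over all 57 was 0.0283 CPM, beside 0.231 CPM over the protein-coding genes. The detected genes were spread over 11 of 21 subfamilies: Igf1r and Insr of the insulin receptors, Ryk, all 3 lemur tail kinases (Lmtk2, Aatk and Lmtk3), Tyro3 and Axl of the TAM receptors, Ddr1, Flt1, Ephb2, Erbb3, Ret, Csf1r and Fgfr1. No member reached the threshold in the EPH A (9 genes listed) and MET, TIE, TRK, ROR and ALK (2 genes listed each) subfamilies, or for Musk, Ptk7, Ros1 and Styk1. The same 15 genes were detected with a threshold of 0.5 CPM, beside 21.4% of all genes and 47.4% of protein-coding genes. With 5 CPM, 8 of the 57 were detected, beside 17.3% and 42.1%.

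**Figure D1:**
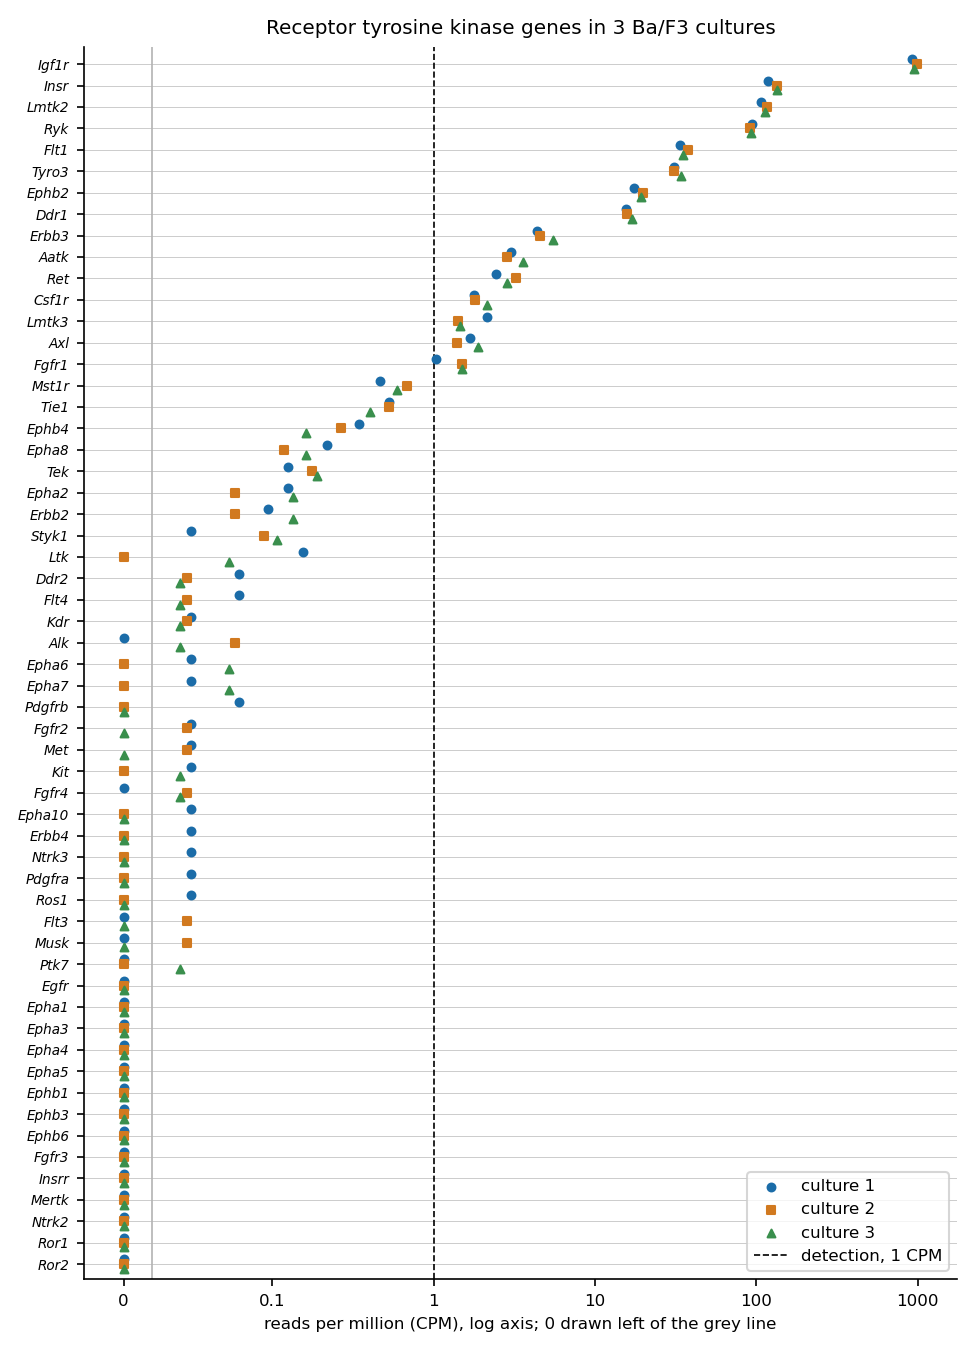
Level in CPM (log axis) of the 57 receptor tyrosine kinase genes in each culture, ordered by mean; symbols stand for cultures and 0 is drawn left of the grey line. The 15 genes right of the dashed 1 CPM line run from 1.35 CPM for Fgfr1 to 949 CPM for Igf1r, and 14 genes had no read in any culture.

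Igf1r, the receptor of insulin-like growth factors (ENSMUSG00000005533, GRCm38 chromosome 7, 67952827 to 68233668, plus strand), dominated the family. It stood at 916, 992 and 940 CPM in cultures 1, 2 and 3, or 949 ± 39.1 (SD, n = 3). All 3 cultures were high and lay close together. The summed level of the 57 genes was 1350, 1457 and 1406 CPM, and Igf1r took 67.8% (Wilson 95% interval 67.4 to 68.2), 68.1% (67.7 to 68.5) and 66.8% (66.4 to 67.2) of it. Per length, Igf1r reached 197 ± 8.74 TPM, the 92.7 percentile of detected genes, and made up 48.7 ± 0.855% of the family's TPM. Insr, the insulin receptor gene and closest relative of Igf1r (chromosome 8), had 117, 135 and 133 CPM, with culture 1 lowest. The third relative, Insrr, had no read in any culture.

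Ryk, a receptor for WNT ligands whose kinase domain is regarded as inactive (chromosome 9, 102834917 to 102908305, plus strand), was next per length. Its values of 94.1, 91.0 and 92.9 CPM were nearly equal in the 3 cultures, and its TPM of 71.1 ± 1.13 lay at the 76.3 percentile. Lmtk2, a lemur tail kinase of intracellular membranes that is grouped with the receptors by sequence and phosphorylates serine and threonine, had 107, 117 and 113 CPM and 48.1 ± 2.18 TPM. Insr followed with 32.5 ± 2.42 TPM. These 4 genes together took 91.3 ± 0.285% of all reads on the family. By mean TPM they were also the 4 detected members above the median of all detected genes, 30.1 TPM, and the other 11 lay below it. Insr was close to that median, at 29.8, 34.2 and 33.6 TPM in cultures 1, 2 and 3.

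A middle group of 4 genes followed at 5 to 18 TPM. Tyro3, a TAM receptor that recognises protein S bound to exposed phosphatidylserine (chromosome 2), stood at 30.7, 30.8 and 34.2 CPM and 17.9 ± 1.01 TPM, with culture 3 above the other two. Ddr1, a receptor for collagen (chromosome 17), had 15.6, 15.8 and 16.9 CPM and 11.7 ± 0.428 TPM. Flt1, which encodes the VEGF receptor VEGFR1 and is known from endothelium and monocytes (chromosome 5), had 33.7, 37.6 and 35.0 CPM and 9.14 ± 0.531 TPM. Ephb2, a receptor for B-type ephrins on neighbouring cells (chromosome 4), had 17.4, 19.9 and 19.4 CPM and 5.21 ± 0.371 TPM. In each of these genes the cultures stayed within a narrow range, from 1.08 times between highest and lowest for Ddr1 to 1.15 times for Ephb2.

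Among the 14 neighbouring pairs in the order by TPM, the ranges of the 3 cultures overlapped in 4, all among the weakest genes: Aatk with Ret, Ret with Csf1r, Csf1r with Axl, and Axl with Lmtk3. By these ranges the order within each of the 4 pairs is not resolved. Genes further apart can still differ: the lowest value of Aatk (1.38 TPM) lay above the highest of Csf1r (1.29), Axl (1.29) and Lmtk3 (1.31). From Igf1r down to Erbb3 each gene lay above the next in every culture. With the length of the longest transcript in place of merged exons, Flt1 (13.3 TPM) lay above Ddr1 (10.7) in every culture. The cultures then overlapped for Insr (35.5) with Lmtk2 (35.7), for Fgfr1 (0.690) with Lmtk3 (0.856), and still for Ret (1.34) with Aatk (1.26).

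**Figure D2:**
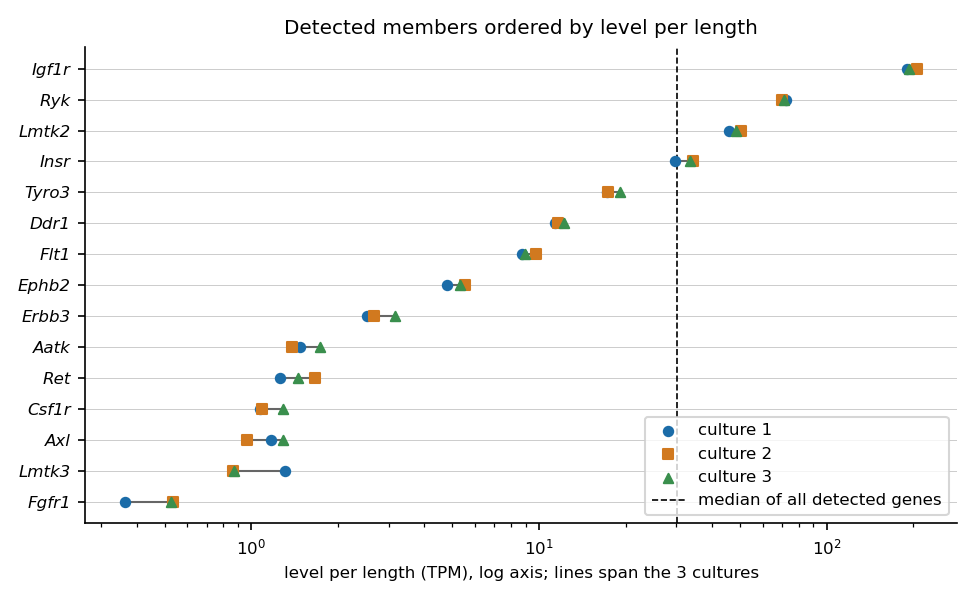
Level per length (TPM, log axis) of the 15 detected receptor genes in each culture, with lines spanning the 3 cultures and a dashed line at the median of all detected genes (30.1 TPM). Igf1r stands apart at 190 to 207 TPM, and the genes from Aatk to Lmtk3 overlap with their neighbours between 0.863 and 1.73 TPM.

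The remaining 7 detected genes had means below 5 CPM. Erbb3, the neuregulin receptor with a weak kinase that signals with a partner such as HER2, led them with 4.37, 4.57 and 5.49 CPM. Aatk, a lemur tail kinase known from neurons, had 3.03, 2.83 and 3.58 CPM and its relative Lmtk3 had 2.15, 1.42 and 1.45. Ret, the receptor of the GDNF family, had 2.43, 3.22 and 2.85 CPM. Axl, a TAM receptor activated by GAS6, had 1.69, 1.39 and 1.88 CPM. These are low but countable signals, since Axl and Lmtk3 each rested on 171 reads and Ret on 293.

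Fgfr1, an FGF receptor, lay nearest above the threshold at 1.03, 1.51 and 1.51 CPM. Its culture 1 value came from 33 reads, with an exact Poisson 95% interval of 0.709 to 1.45 CPM, so counting error alone spans the threshold there. Mst1r, which encodes the macrophage-stimulating protein receptor RON, lay nearest below it at 0.468, 0.679 and 0.592 CPM from 15, 23 and 22 reads. By TPM of at least 1 in every culture 12 genes were detected, without Axl, Fgfr1 and Lmtk3, beside 22.1% of all genes and 46.2% of protein-coding genes.

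Csf1r, the receptor that drives macrophages (chromosome 18), was detected at only 1.78, 1.80 and 2.15 CPM. Of its exon bases, 873 or 15.1% are shared with exons of Hmgxb3 on the opposite strand, which had 5718 reads beside 198 on Csf1r, and the strand setting of the counting is not given in the sources used here, so the Csf1r value is uncertain. Lmtk3 shares 243 exon bases (4.23%) with Sult2b1 on the opposite strand, which had only 44 reads. Of 8 macrophage markers 4 were detected, Cd68, Adgre1, Lyz2 and C1qb, with a summed level of 124 to 128 CPM over the cultures, while C1qa, Mrc1, Cx3cr1 and Marco had no read. Their part in the Csf1r and Axl levels was not tested. In bulk RNA, a few cells with much of a transcript and many cells with little cannot be told apart.

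The other 42 receptor genes were not detected, and together they had 244 reads, or 0.168% of the reads on the family. Of these, 14 had no read in any culture, 17 had 1 to 3 reads in all, and 11 had from 4 reads to the 60 of Mst1r. After Mst1r came Tie1, an endothelial orphan receptor (17, 18 and 15 reads), the ephrin receptor genes Ephb4 (11, 9 and 6) and Epha8 (7, 4 and 6), and Tek, which encodes the angiopoietin receptor TIE2 (4, 6 and 7). Over the 3 cultures Epha2 had 11 reads, Erbb2 10, Styk1 8, Ltk 7, and Ddr2 and Flt4 4 each. Kdr, Alk, Epha6 and Epha7 had 3 reads each, Pdgfrb, Fgfr2, Met, Kit and Fgfr4 had 2, and Epha10, Erbb4, Ntrk3, Pdgfra, Ros1, Flt3, Musk and Ptk7 had 1. The 14 without a read were Egfr, Fgfr3, Insrr, Mertk, Ntrk2, Ror1, Ror2, Epha1, Epha3, Epha4, Epha5, Ephb1, Ephb3 and Ephb6.

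Kit and Flt3, which mark early haematopoietic cells, were near 0. Kit, the stem cell factor receptor of stem and mast cells, had 1, 0 and 1 reads. Flt3, the receptor of early lymphoid and myeloid progenitors, had 0, 1 and 0 reads. Neither had more than 1 read in a culture, which is below the limit that a count of 0 allows.

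Of 11 listed kinases that are often put into Ba/F3 as transgenes, 3 were detected as endogenous genes (27.3%), a share near the 26.3% of the whole family. Erbb2, which encodes HER2, had 3, 2 and 5 reads, and Alk, known from fusion oncogenes, 0, 2 and 1. Met, the hepatocyte growth factor receptor gene, had 1, 1 and 0, and Pdgfrb and Pdgfra, both PDGF receptor genes, had 2 reads and 1 read, all in culture 1. Ros1, an oncogene in lung cancer fusions, had 1 read in all, and Egfr and Fgfr3 had none. The detected 3 were Igf1r, Ret and Fgfr1, at the levels above.

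Of 7 fibroblast markers none was detected (summed level 0.797 to 0.968 CPM), and of 6 epithelial markers none (0.161 to 0.218). Of 6 endothelial markers only Pecam1, which blood cells also express, was detected; Esam had 11, 5 and 8 reads, Cdh5 had 1 read in all, Vwf 2, and Emcn and Cldn5 none. The part of these markers in the Flt1 level was not tested. Haematopoietic markers were detected for 7 of 8 genes, with a summed level of 2418 to 2433 CPM, and Cd34 without a read. Mast cell markers were detected for 2 of 7 and B cell markers for 2 of 8.

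How far the receptor levels differed between the cultures was tested against counting noise for the 17 genes with a mean of at least 10 reads. The reads were set against Poisson noise in a chi-square test, adjusted by Benjamini and Hochberg over 13139 genes, and 32.7% of those genes and 4 of the 17 were called. The highest culture was 1.08 times the lowest for Igf1r (chi-square, adjusted p = 1.77e-22), 1.15 times for Insr (4.99e-10), 1.09 times for Lmtk2 (0.00355) and 1.11 times for Tyro3 (0.0391). Culture 1 was lowest in all 4. For Tyro3 it was nearly equal to culture 2, at 30.7 and 30.8 CPM, and culture 3 was higher at 34.2 CPM. Igf1r had 97903 reads in all, so that a small ratio exceeded the counting noise. The members with means below 5 CPM had larger ratios, from 1.21 to 1.52 times, and none was called, which at their depth does not show that they were steady.

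Without culture 1 only Igf1r was still called (chi-square, adjusted p = 9.28e-11). The share called over all tested genes also fell, from 32.7% to 11.1%. The log2 ratio of highest to lowest culture then went from 0.20 to 0.01 for Insr (chi-square, adjusted p = 0.864) and from 0.13 to 0.04 for Lmtk2 (0.483). For Tyro3 it stayed near its value, 0.15 beside 0.16, and the call was lost (0.0875); without the third culture that ratio was 0.0050 (0.977). Flt1 was called without the third culture (chi-square, adjusted p = 0.0461), where 20.2% of all tested genes were called. Scaling by trimmed means of M values or by median ratios, with factors from 0.988 to 1.01, called Flt1 (0.0429 and 0.0338) and Ephb2 (0.0499 and 0.0482) as well. Under each of these scalings 34.3% of all tested genes were called. The variance was also widened by a negative binomial dispersion of 0.00730, set by the mean of the test statistic over all tested genes. With it none of the 17 was called by the chi-square test at an adjusted p under 0.05, beside 2.32% of all tested genes. None had an unadjusted p under 0.05 either, and the share of all genes at that level is not given here. The genes that vary most weigh on such a mean. That no receptor was called therefore does not show that the 17 were steady. Of the 15 detected receptors, 11 were lowest in culture 1, 4 in culture 2 and none in culture 3. This split was the same under both other scalings. The split over all genes is not given here, so that of the receptors is not shown to be particular to them. Culture 1 was also the library with the fewest reads, and the part of that was not tested.

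**Figure D3:**
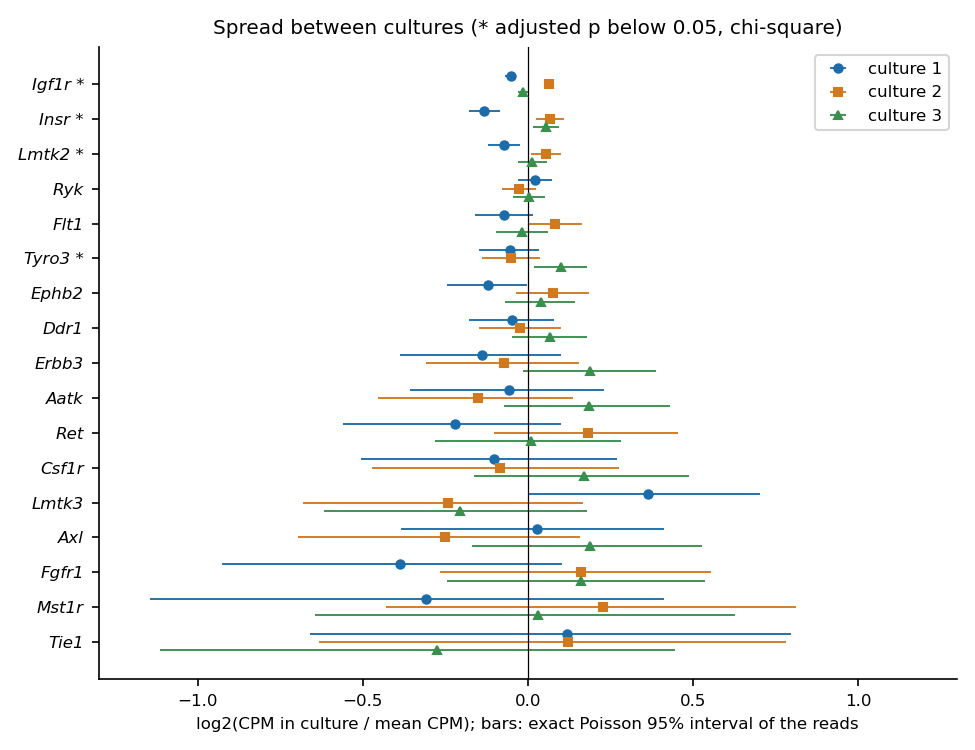
Level of the 17 tested receptor genes in each culture relative to their mean (log2 of CPM in the culture over the mean of 3 cultures); bars are exact Poisson 95% intervals of the reads, and an asterisk marks an adjusted p below 0.05 in the chi-square test. Culture 1 lies left of the others for Igf1r, Insr and Lmtk2, and the intervals widen towards Tie1, which had 50 reads.

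Of 65 ligand genes, 14 were detected, or 21.5%, which is near the 19.9% of all genes and below the 45.9% of protein-coding genes; these differences were not tested. Receptors were each paired with a few chosen ligand genes after the values were seen, and ligand genes outside these pairs were not counted. Of 12 detected receptors with such a pair, 3 had a detected ligand gene among those paired, and 9 had none. Igf1r and Insr belong to the latter: Igf1, Igf2, Ins1 and Ins2 had no read in any culture. Wnt5a for Ryk, and Nrg1 and Nrg2 for Erbb3, had no read either. For Ret, Gdnf and Nrtn had no read, and Artn and Pspn 1 read each. For Ddr1 the collagen gene Col1a1 had 90 reads (0.463 ± 0.0625 TPM) and Col1a2 none. For Ephb2 the ephrin gene Efnb3 was closest to detection, at 1.40, 0.885 and 0.753 CPM, while Efnb2 had 12 reads and Efnb1 had 1. Gas6 had 1 read beside Axl, and Fgf1 19 reads and Fgf2 1 read beside Fgfr1. These counts describe RNA of the cells and not the growth factors in the serum.

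Flt1, Tyro3 and Csf1r were the detected receptors with a detected ligand gene among these pairs. All 3 VEGFR1 ligand genes on the list were detected: Vegfa, the vascular growth factor, at 131 ± 17.6 TPM, Vegfb at 93.7 ± 7.18 and placental growth factor (Pgf) at 36.9 ± 1.29, each above the 9.14 TPM of Flt1 in every culture. Kdr, the other receptor of VEGF-A, had 1 read in each culture, and the co-receptor Nrp1 had none. Pros1, the protein S gene, stood at 31.7 ± 1.99 TPM beside Tyro3. The genes of both CSF1 receptor ligands, Csf1 (10.8 ± 0.131 TPM) and Il34 (30.3 ± 1.04), were read above Csf1r at 1.15 ± 0.119.

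Other ligand genes were expressed where their receptor was near 0. Angpt1, the angiopoietin that activates TIE2, had the highest level of all 65 ligand genes, 383, 407 and 397 CPM and 265 ± 8.63 TPM, while its receptor gene Tek averaged 0.121 TPM. Mst1, the macrophage-stimulating protein gene, had 52.5 ± 3.68 TPM beside 0.403 ± 0.0743 of Mst1r. Flt3l stood at 10.2 ± 3.33 TPM beside the single read of Flt3, and Agrn, whose neural form activates MuSK, at 15.2 ± 0.549 TPM beside the single read of Musk. The EGF receptor ligand genes Hbegf (6.35 ± 0.750 TPM), Btc (2.47 ± 0.0733) and Egf (0.909 ± 0.183) were detected and Egfr was without a read. Fgf11, at 78.1 ± 10.8 TPM, was on the list by name, but it belongs to a group of FGF homologues that stay inside the cell. Kitl had no read, as had Tgfa, Areg and Ereg.

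**Figure D4:**
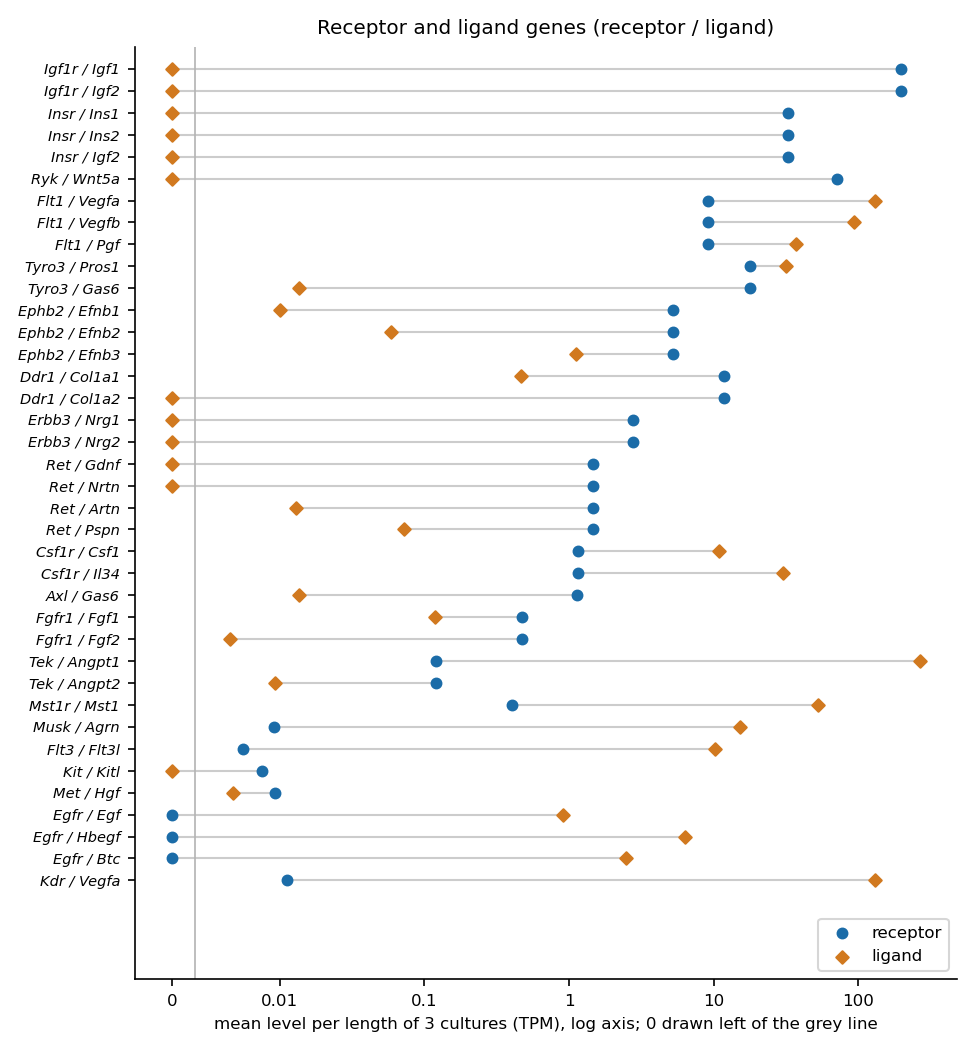
Mean level per length (TPM of 3 cultures, log axis) of receptor genes (circles) and their ligand genes (diamonds), a row per receptor and ligand; 0 is drawn left of the grey line. All plotted ligands lie right of the receptor for Flt1, Csf1r, Mst1r, Flt3, Musk, Egfr and Kdr, as do Pros1 for Tyro3 and Angpt1 for Tek, and those of Igf1r and Insr lie at 0.

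Adaptors and regulators through which receptor kinases act inside the cell were detected in larger part, beside 45.9% of protein-coding genes. Of 35 adaptor and effector genes, 28 were detected (80%), led per length by the phospholipase gene Plcg2 (276 ± 8.61 TPM), Grb2 (265 ± 3.88) and the docking protein gene Dok2 (99.8 ± 4.23). Grb14 had no read, Grb10 had 2 and Shc2 had 5. Of the insulin receptor substrates, named after their values were seen, Irs2 stood at 12.3 ± 0.593 TPM and Irs1 and Irs4 had no read. Of 27 genes that shed or dampen receptors, 21 were detected (77.8%): the shedding protease gene Adam10 had 295 ± 8.41 TPM, the phosphatase gene Ptpn6 230 ± 8.95 and the RAS pathway inhibitor gene Spred1 72.8 ± 2.31. Cblc had 6 reads, Errfi1 none and Lrig1 11.

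Of 19 co-receptor genes 3 were detected, or 15.8%, beside 19.9% of all genes and 45.9% of protein-coding genes. They were Cd44 (168 ± 3.09 TPM), a co-receptor of MET, and Lrp6 (31.4 ± 2.02) and Lrp4 (9.10 ± 0.158), of which LRP4 is the agrin-binding partner of MuSK. Nrp2 had 2 reads and Gfra1 had 1. Among the RET co-receptors Gfra2, named after its values were seen, came closest at 0.781 ± 0.0857 TPM. Of 32 cytoplasmic tyrosine kinase genes, 18 were detected (56.3%), beside 15 of 57 receptor genes (26.3%) and 45.9% of protein-coding genes; this difference was not tested. Jak1, a Janus kinase that serves many cytokine receptors, led at 374 ± 9.51 TPM, followed by Btk (348 ± 10.9) and Fes (250 ± 19.0), each above Igf1r in every culture. Src had 10, 10 and 12 reads, and Yes1 and Fgr had 1 read each.

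Some receptor kinase genes lie close together in the mouse genome. Of 9 pairs of family members less than 1 Mb apart, 5 held 1 detected and 1 undetected gene, 4 held no detected gene, and none held 2. Over the whole family 26.3% of genes were detected. Flt1 (9.14 TPM, chromosome 5, 147561604 to 147726011) lies 161 kb from Flt3 (147330741 to 147400489), which had a single read. Tyro3 (17.9 TPM) lies 37.3 kb from Ltk (0.0677 TPM) on chromosome 2, and Ephb2 (5.21 TPM) 93.4 kb from Epha8 (0.123 TPM) on chromosome 4. Csf1r (1.15 TPM) and Pdgfrb (0.0132 TPM) are 15.5 kb apart, and Ryk (71.1 TPM) lies 480 kb from Ephb1, which had no read. The neighbouring trio Pdgfra, Kit and Kdr on chromosome 5 had 1, 2 and 3 reads in all. All pairs within this trio are among the 4 without a detected gene, so the 9 pairs are not separate places. These pairs are few and were described after their values were seen.

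The promoter sequences of the family were compared because detection within it was so uneven. RefSeq promoters (GRCm38.p6) were matched by symbol for 48 of the 57 genes, and the 250 bases before each transcription start were read for the pair of letters CG, which is the same on both strands. The windows below are those of the highest genes per length, Igf1r and Ryk, of Epha5, the gene without a read with the highest CpG ratio, and of Ddr2, a collagen receptor gene with 4 reads and the lowest CpG ratio of the 48. They are written 5′ to 3′ on the strand of the gene, with every CG in capitals.
Igf1r, chr7:67952007-67952256, plus strand: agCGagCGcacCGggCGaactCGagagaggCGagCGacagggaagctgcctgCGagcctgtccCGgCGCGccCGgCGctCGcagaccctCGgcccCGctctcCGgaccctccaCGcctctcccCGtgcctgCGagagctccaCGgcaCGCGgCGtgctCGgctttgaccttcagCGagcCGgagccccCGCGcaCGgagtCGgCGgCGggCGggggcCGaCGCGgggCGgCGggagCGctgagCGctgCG
Ryk, chr9:102834670-102834919, plus strand: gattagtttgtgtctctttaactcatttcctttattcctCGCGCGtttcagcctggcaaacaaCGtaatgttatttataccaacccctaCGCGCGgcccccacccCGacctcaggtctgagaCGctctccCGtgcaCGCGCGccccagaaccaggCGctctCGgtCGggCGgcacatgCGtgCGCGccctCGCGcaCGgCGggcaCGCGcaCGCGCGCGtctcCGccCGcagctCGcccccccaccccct
Epha5, chr5:84417383-84417632, minus strand: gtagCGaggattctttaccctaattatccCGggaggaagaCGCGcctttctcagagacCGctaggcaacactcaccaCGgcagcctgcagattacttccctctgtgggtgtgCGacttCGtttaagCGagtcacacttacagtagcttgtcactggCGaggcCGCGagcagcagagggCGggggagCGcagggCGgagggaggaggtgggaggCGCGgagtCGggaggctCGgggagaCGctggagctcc
Ddr2, chr1:170088945-170089194, minus strand: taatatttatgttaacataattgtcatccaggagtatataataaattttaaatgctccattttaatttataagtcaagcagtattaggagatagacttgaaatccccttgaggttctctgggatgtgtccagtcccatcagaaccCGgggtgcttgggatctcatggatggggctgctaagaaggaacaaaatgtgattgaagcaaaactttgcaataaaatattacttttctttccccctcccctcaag

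The Igf1r window holds 42 CG pairs with 77.6% G and C, and the Ryk window 33 with 65.2%. Relative to the number that the C and G content alone would give, these are CpG ratios of 1.12 and 1.33. The window of Epha5, which had no read, holds 20 pairs at a ratio of 0.849, and that of Ddr2 holds 1 pair at 0.113. A CG is no rare motif, since 92.1% of all promoter windows of this length hold at least 1. Transcription starts differ between annotations. The 30 bases after the RefSeq start were found in a GENCODE transcript of the same gene for Ryk, Epha5 and Ddr2 and not for Igf1r. The Ddr2 window lies inside the annotated gene, which starts at 170110762 on the minus strand. Finding the 30 bases there shows only that an exon follows the window, so whether it is a promoter of Ddr2 was not tested.

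A CpG ratio of at least 0.6, a level often used for CpG islands and set here after the values were seen, was found for 9 of 10 detected receptors with a promoter entry, Axl (0.233) being the exception. It was also found for 17 of 38 undetected receptors (44.7%), among them Epha8 at 1.05 and Alk at 0.871, and for 6 of 13 without a read. Among protein-coding genes it was found for 75.3% of those detected and 24.4% of those not detected. Where several starts are listed, the start with the highest ratio was taken. Insr, Erbb3, Ret, Csf1r and Fgfr1 were detected and are not in the promoter table, so the detected group is small, and no test was made.

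**Figure D5:**
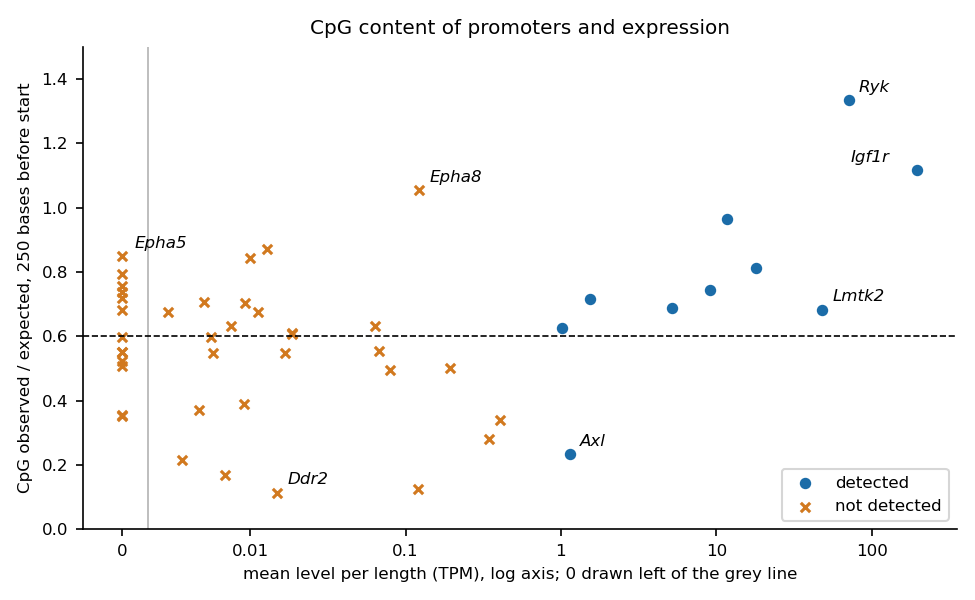
CpG ratio (observed over expected CG pairs in the 250 bases before the start) against mean level per length (TPM, log axis) for 48 receptor genes, filled circles for detected and crosses for undetected genes, with a dashed line at 0.6. Ryk and Igf1r have the highest ratios, and the undetected genes span 0.113 to 1.05. The lowest ratio, of Ddr2, is from a window inside the annotated gene.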

How the data were processed

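Polyadenylated RNA of 3 Ba/F3 cultures was sequenced as strand-marked libraries with 50-base single-end reads, per the series' design text and the labels' protocols. Reads were aligned to GRCm38 with HISAT2, also per the submitters' processing notes, and counted with GenSum, a program of the submitters, per the design text. For the tool versions, the annotation, multiply matched reads and the strand setting: not given in the sources used here. Values deposited by the authors are on a log2 scale and equal log2(reads per 10000000 + 1), since each column sums to 10000000 after undoing the log2. The step between low values then gave back whole reads for 100% of entries within a tolerance of 0.01.

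Columns of cultures 1 and 2 follow the gene identifier and that of culture 3 the symbol and coordinates of the row. In 0 of 19878 rows with reads in culture 1 do both name the same gene. Culture 3 was therefore joined through GENCODE M21 (GRCm38), by coordinates in 54870 rows and by symbol in 391; 225 rows had no match. The median difference of culture 3 from cultures 1 and 2 among strongly read genes was then 0.058 on the log2 scale, beside 0.66 on the rows as deposited. The authors' average mixes genes and was not used.

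CPM used the sum of each column, and TPM merged exon lengths. The test is a chi-square test of Poisson heterogeneity over all genes with a mean of at least 10 reads, with Benjamini-Hochberg adjustment and a threshold of 0.05, tested on simulated data. The planned test assumed counts; since the deposited unit is log2, it was run on the recovered reads. Python 3.11.15, numpy 2.4.6, scipy 1.17.1, pandas 2.3.3 and matplotlib 3.10.9 were used. Alternatives changed thresholds, scaling, length, variance, the join and the cultures included.

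The members and the lists of ligands, co-receptors, adaptors, attenuators, cytoplasmic kinases and markers were chosen with earlier results of these data known; the neural marker list is not reported here. Named by rule were all detected members, the 5 highest undetected, Kit, Flt3, Csf1r, a set of common transgenes, the 3 highest per length and up to 3 undetected genes of each pathway list, and ligands of the detected members; ligands set beside undetected receptors were added after the values were seen.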

Additional observations from a re-analysis of the deposited data

How the results depend on the processing

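The same 15 receptors were detected at 0.5 CPM and at 1 CPM in at least 1 culture. They were also the same under both other scalings and without any 1 culture. The count was 12 of 57 at 1 TPM, beside 22.1% of all genes and 46.2% of protein-coding genes. It was 8 at 5 CPM, beside 17.3% and 42.1%. On the rows as deposited the count was also 15, but there the culture 3 value belongs to another gene, so that it is no check. Of 17 tested receptors 4 were called as different between cultures, beside 32.7% of all tested genes. The 4 became 0 with negative binomial variance (2.32% of genes) and 6 under both other scalings (34.3%). With no minimum of reads, 3 of 43 tested receptors were called, beside 17.0% of genes. Leaving out cultures gave 1 to 4 calls: 1 without culture 1 (11.1% of genes), and 4 without culture 2 (29.5%) or culture 3 (20.2%). Of the co-receptor list, 3 genes became 5 at 0.5 CPM; the counts of the other lists stayed within 1.5 times. The 10 neighbouring pairs in the TPM order without overlap became 8 with longest transcripts and 11 to 12 without a culture. The summed level of 1405 CPM ranged from 1378 to 1432 without a culture. No paired analysis was possible because the samples form 1 group. Receptors with fewer than 10 reads on average could not be tested for differences between the cultures.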
